A study of Homo sapiens with 6 samples.

Results

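The regions described here are the stretches of open chromatin on human chromosome 19 that lie outside its zinc finger gene clusters. All 12 deposited peak lists were merged, joining peaks that shared at least 1 bp, and a merged region was taken when its midpoint on chromosome 19 (hg19) fell outside 7 windows. The windows run from 9.0 to 10.0, 11.6 to 13, 19.8 to 24.5, 36.5 to 38.5, 44.3 to 45.0, 52.3 to 54.0 and 56.5 to 59.1 Mb. Of 130887 merged regions on the 22 autosomes and X, 2673 were outside the windows, here called non-cluster regions, and 447 were inside them. Position alone chose the regions, so how often and how strongly they were open is not fixed by the choice.

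Accessible DNA was mapped by ATAC-seq, which uses the enzyme Tn5 to tag open chromatin with adapters, in 3 lines of B-cell precursor acute lymphoblastic leukemia. Each line carried either sh2, an shRNA that knocks down NSD2, or NT, a non-targeting control shRNA. The groups were RS4;11 sh2, SEM sh2 and RCH sh2, set against RS4;11 NT, SEM NT and RCH NT. The KMT2A-AFF1 fusion gene is present in RS4;11 (labelled RS411) and in SEM, and RCH was taken to be the line RCH-ACV. Each group was 1 sample with 2 peak lists, treated as 2 libraries. Whether separate cultures were used is not stated in the labels, and the spread within a sample may therefore be technical. Only 1 shRNA against NSD2 was used, and its effect on NSD2 protein or RNA cannot be read from peak lists.

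NSD2 is a histone methyltransferase that places a dimethyl mark on lysine 36 of histone H3, a mark found over active genes and between genes. Chromosome 19 is the human chromosome with the most genes for its length. RefSeq (GRCh38.p14) lists 1451 protein-coding genes on it, and it ranked 1 of the 23 chromosomes by protein-coding genes per Mb. Of those genes, 264 have symbols of the ZNF, ZFP, ZSCAN or ZIM type. Many zinc finger genes lie in tandem clusters that carry repressive chromatin over the gene bodies, while the rest of the chromosome is packed with genes used in most cells. Genes of chromosome 19 outside the families of the clusters include CD79A, a chain of the B-cell receptor, CD22, a B-cell surface lectin, SMARCA4, an engine of chromatin remodelling, and DNMT1, the maintenance DNA methyltransferase. Regions are given by position only and were not assigned to genes.

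The 12 lists held 41594 to 84794 peaks. The sh2 lists were shorter than the NT lists in RS4;11 (61551 and 63392, against 84794 and 74244) and in RCH (44244 and 41594, against 56511 and 57088), and longer in SEM (64200 and 62265, against 53837 and 55072). The value that accompanies each deposited peak was taken as fold enrichment over the local background that the peak caller estimated for that library. It is used here to rank peaks within a list and to describe regions, and values of different lists are not on a common scale. Read depth is unknown.

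Non-cluster chromosome 19 held open regions at high density, and many were open in each list. The chromosome outside the windows is 45.0 Mb long and held 59.4 regions per Mb, against 43.1 per Mb over all chromosomes used. Of the 2673 regions, 772 (28.9%) had a peak in all 12 lists, against 16.5% of all regions, while 562 (21.0%) were open in a single list, against 28.3% of all regions. Neighbouring non-cluster regions lay a median of 8.30 kb apart, against 11.7 kb over all regions, and 34.0% of neighbours were under 5 kb apart, against 27.3%. The zinc finger windows were sparser, at 31.7 regions per Mb and a median spacing of 19.2 kb, but 44.1% of their regions were open in all 12 lists. Chromosomes 17 and 22, which are also gene-dense, held 42.0 regions per Mb, and 23.9% of their regions were open in all 12 lists.

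**Figure D1:**
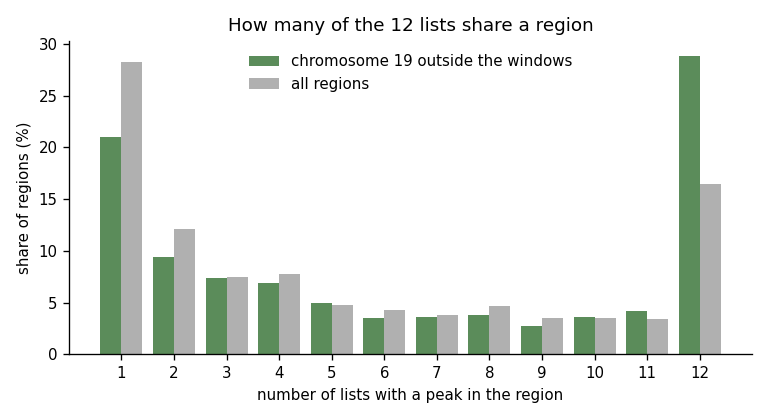
The bars give the share of regions (vertical axis, percent) that had a peak in 1 to 12 of the lists (horizontal axis), for the 2673 non-cluster regions and for all 130887 regions. At 12 lists the non-cluster bar stands at 28.9% against 16.5%, and at 1 list at 21.0% against 28.3%.

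In every sample there were more peaks per Mb outside the windows than in the rest of the genome. The means per sample ran from 29.9 (RS4;11 NT) to 37.7 peaks per Mb (SEM NT) on non-cluster chromosome 19, against 13.8 (RCH sh2) to 26.1 (RS4;11 NT) elsewhere. The log2 ratio averaged 0.82 ± 0.42 (SD, n = 6 samples) and was positive in 6 of 6. An exact two-sided sign-flip test gave p = 0.03125, the smallest that 6 samples allow, and 0.125 after Benjamini-Hochberg adjustment over the 8 tests made. The samples of a line share that line, so they are not fully independent. Against chromosomes 17 and 22 the log2 ratio was smaller, with a mean of 0.58.

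Peaks outside the windows had larger median widths than those of the rest of the genome in each sample. The non-cluster median width was 380 ± 5.66 bp in RS4;11 sh2, 421 ± 4.60 bp in SEM sh2 and 361 ± 8.13 bp in RCH sh2, and 380.5 ± 2.12, 433.5 ± 0.71 and 361 ± 3.54 bp in the NT samples of these lines (SD, n = 2 libraries). The rest of the genome had medians of 325.5 to 361.5 bp per sample. The difference averaged 49.5 ± 19.6 bp and was positive in 6 of 6 samples (exact sign-flip p = 0.03125, adjusted 0.125). Neither density nor width thus passed 0.05 after adjustment. Against chromosomes 17 and 22 the width difference was smaller, with a mean of 21.9 bp. Peaks inside the zinc finger windows were wider still, with medians of 398 to 548.5 bp per sample. The median strength of non-cluster peaks was middling for the list, which does not describe the strongest peaks. Their median percentile of fold within the list was 48.5 to 51.9 per sample, and the difference from the rest of the genome averaged -0.12 ± 1.33 points (exact sign-flip p = 0.8125, adjusted 0.8125). Zinc finger window peaks had median percentiles of 66.3 to 79.7.

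Within a line, the share of regions found by all 4 lists was set against that elsewhere. Of the non-cluster regions with any peak in the line, 61.5% were open in all 4 lists in RS4;11, 61.5% in SEM and 48.0% in RCH. In the rest of the genome these shares were 48.3%, 47.4% and 37.5%. The difference averaged 12.6 ± 1.84 percentage points (SD, n = 3 lines) and had the same sign in 3 of 3 lines (exact sign-flip p = 0.25, the smallest possible with 3 lines, adjusted 0.667). The difference depended on list length. It averaged 4.06 points with lists of equal length within a line, where RCH had 41.3% against 41.1%, and 1.84 points with all lists at one length (exact sign-flip p = 0.75). Against the zinc finger windows the sign was the other way in the deposited lists, with a mean of -15.4 points. Against chromosomes 17 and 22, which are also gene-dense, the mean was 5.13 points in the deposited lists.

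The lists that missed a common region, or held a region alone, were not those of the genome as a whole. Of the 112 non-cluster regions open in 11 lists, 26 lacked a peak in an RS4;11 NT library (23.2%) and 47 in an RCH NT library (42.0%). Over all regions open in 11 lists these shares were 3.34% and 13.9%. RCH sh2, whose lists were the shortest, accounted for 18 of the 112 (16.1%), against 54.4% over all regions. Conversely, 221 of the 562 non-cluster regions open in a single list were open in an RCH sh2 library (39.3%, against 11.9% over all regions). RS4;11 NT, whose lists were the longest, held 31 of them (5.52%, against 35.3%).

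The main comparison set sh2 against NT within each line. The number of non-cluster peaks was higher with sh2 in RS4;11 and RCH, where the lists as a whole were shorter. RS4;11 had 1432 and 1446 non-cluster peaks with sh2, against 1404 and 1292 with NT. RCH had 1734 and 1651 with sh2, against 1418 and 1388 with NT. In these lines no sh2 library overlapped an NT library in number. SEM had 1686 and 1554 with sh2, against 1715 and 1680 with NT, and here the libraries overlapped. On the log2 scale, sh2 over NT came to 0.10 for RS4;11, -0.07 for SEM and 0.27 for RCH. These averaged 0.10 ± 0.17 (SD over n = 3 lines, exact sign-flip p = 0.5, adjusted 0.667). With only peaks above the pooled median fold, the ratio was 0.007 ± 0.071 in RCH (combined SD of the libraries), 0.21 in RS4;11 and -0.10 in SEM. That cutoff, 6.37, is 1 value for lists whose folds are not on a common scale. The median fold of all peaks lay further below it in RCH sh2 (5.37) than in RCH NT (6.10). How much this alters the ratio was not tested. The sequence covered by all deposited non-cluster peaks averaged 635 kb with sh2 against 593 kb with NT in RS4;11, 793 against 857 kb in SEM and 727 against 582 kb in RCH.

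As a share of the list, non-cluster peaks differed more. They made up 2.30 ± 0.03% of peaks in RS4;11 sh2 (SD, n = 2 libraries) and 1.70 ± 0.06% in RS4;11 NT. In RCH they made up 3.94 ± 0.04% with sh2 and 2.47 ± 0.06% with NT. In SEM the order was the reverse, with 2.56 ± 0.09% with sh2 and 3.12 ± 0.10% with NT. The sh2 and NT libraries of a line did not overlap in any of the 3 lines. The shares gave log2 ratios of 0.44, -0.28 and 0.68 for RS4;11, SEM and RCH. Their mean was 0.28 ± 0.50 (n = 3 lines, exact sign-flip p = 0.5, adjusted 0.667), so no direction common to the lines was shown. In each line the shRNA with the shorter lists had the higher share. The peak caller's background level, estimated from the step between deposited values, averaged 1.86 with sh2 against 2.16 with NT in RS4;11, 1.89 against 1.67 in SEM and 2.56 against 1.78 in RCH. Only 9.12 to 24.8% of the values of a list were whole multiples of that step, so the level describes a minority of peaks. The part of this background level in the share was not tested. When each list of a line was shortened to equal length by keeping its peaks of highest fold, the log2 ratios of the shares were 0.41, -0.33 and 0.68.

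**Figure D2:**
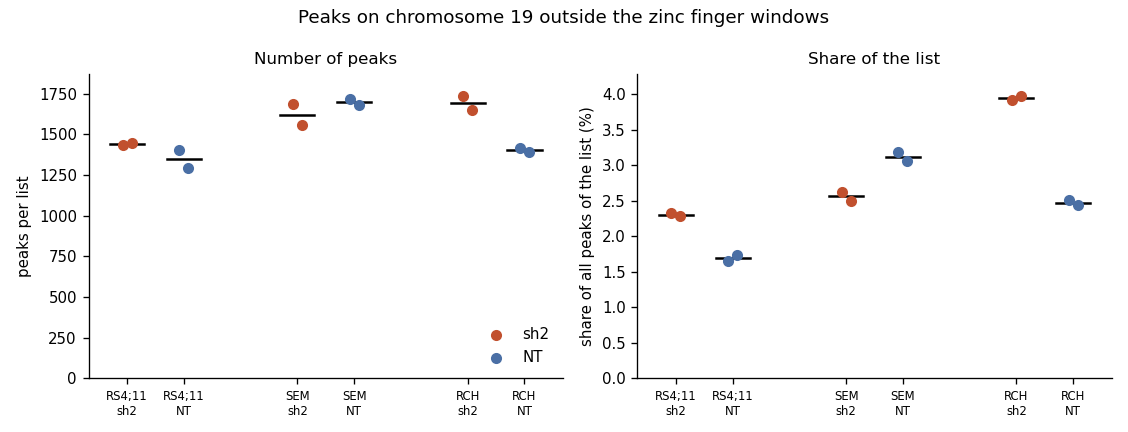
Each dot is 1 library, and the bar is the mean of the 2 libraries of a sample. The left panel gives the number of non-cluster peaks of chromosome 19 and the right panel their share of all peaks of the list in percent, with sh2 left of NT in each line. The share is higher with sh2 in RS4;11 (2.30% against 1.70%) and RCH (3.94% against 2.47%) and lower in SEM (2.56% against 3.12%).

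The zinc finger windows and the other gene-dense chromosomes gave shares that differed in the same directions. Peaks inside the windows made up 0.435% with sh2 against 0.358% with NT in RS4;11, 0.496% against 0.590% in SEM and 0.791% against 0.572% in RCH. Chromosomes 17 and 22 together gave 4.82% against 3.96%, 4.84% against 6.02% and 6.67% against 4.79% in the same lines. The directions were thus not particular to non-cluster chromosome 19.

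Since list length alters which weak peaks are counted, regions open in all 12 lists were ranked by fold within each list. The same 21535 regions enter each ranking, though which regions are open in all 12 lists depends on the lengths of the lists. The 772 non-cluster regions had a median percentile of 31.1 and 30.5 in the RS4;11 sh2 libraries, against 22.7 and 23.2 in the RS4;11 NT libraries. RCH had 53.8 and 53.5 with sh2, against 34.1 and 32.8 with NT. SEM had 42.0 and 38.9 with sh2, against 50.1 and 49.1 with NT. Again no libraries of a line overlapped between sh2 and NT, and SEM went the other way. The differences were 7.89 points in RS4;11, -9.13 in SEM and 20.2 in RCH, with a mean of 6.34 ± 14.7 (n = 3 lines, exact sign-flip p = 0.75, adjusted 0.8125). Without RCH the mean of the remaining lines was -0.62 points. With all lists at one length the differences were 10.01 points in RS4;11, -11.4 in SEM and 21.96 in RCH.

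**Figure D3:**
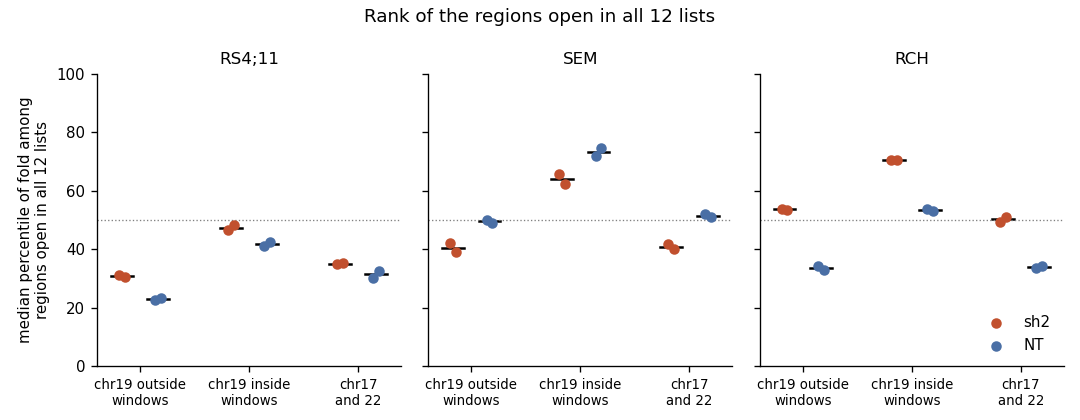
Each dot is the median percentile of fold (vertical axis, 0 to 100) in 1 library, over the regions open in all 12 lists that lie on chromosome 19 outside the windows, inside the windows, or on chromosomes 17 and 22. Bars are means of 2 libraries, sh2 stands left of NT, and the dotted line marks 50. In RS4;11 and RCH each group of regions ranks higher with sh2, and in SEM lower.

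The rank shift was broad rather than carried by a few regions. In RCH, 489 of the 772 regions (63.3%) ranked higher in both sh2 libraries than in both NT libraries, against 28.6% of all 21535 regions, and 37 (4.79%) ranked lower in both, against 25.4%. In RS4;11, 274 (35.5%) ranked higher in both sh2 libraries, against 23.5% of all regions, and 55 (7.12%) lower, against 18.5%. In SEM, 43 (5.57%) ranked higher, against 22.1% of all regions, and 322 (41.7%) lower, against 26.1%. The middle 50% of the non-cluster shifts spanned 5.43 to 24.7 points in RCH, -0.65 to 12.9 points in RS4;11 and -14.0 to -0.34 points in SEM. In all, 80 of the 772 regions (10.4%) ranked higher with sh2 in both RS4;11 and RCH and lower in SEM, and 0 did the reverse. Over all 21535 regions the corresponding shares were 3.05% and 2.42%. Regions inside the zinc finger windows and on chromosomes 17 and 22 were intermediate in RCH, with 52.8% and 50.3% ranked higher with sh2, and in RS4;11, with 24.9% and 27.9%. In SEM they had 39.1% and 42.9% ranked lower with sh2, close to the non-cluster share of 41.7%.

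The same order held among the strongest peaks of each list. Of the 5000 peaks of highest fold in each list, 35 and 28 were non-cluster peaks in the RS4;11 sh2 libraries, against 11 and 13 in the NT libraries. RCH had 165 and 152 with sh2 and 40 and 52 with NT. SEM had 87 and 56 with sh2, against 171 and 169 with NT. In RS4;11 NT non-cluster peaks were 0.22 and 0.26% of these strongest peaks, against 1.70% of the whole list. Only in SEM NT was the share among the strongest higher than in the list (3.42 and 3.38%, against 3.12%). Among the 10000 strongest, the log2 ratio between sh2 and NT came to 0.83 for RS4;11, -0.69 for SEM and 1.21 for RCH. Among the 40000 strongest it was 0.48, -0.28 and 0.67. The shRNA libraries of a line did not overlap at any of the 5 numbers of peaks looked at.

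**Figure D4:**
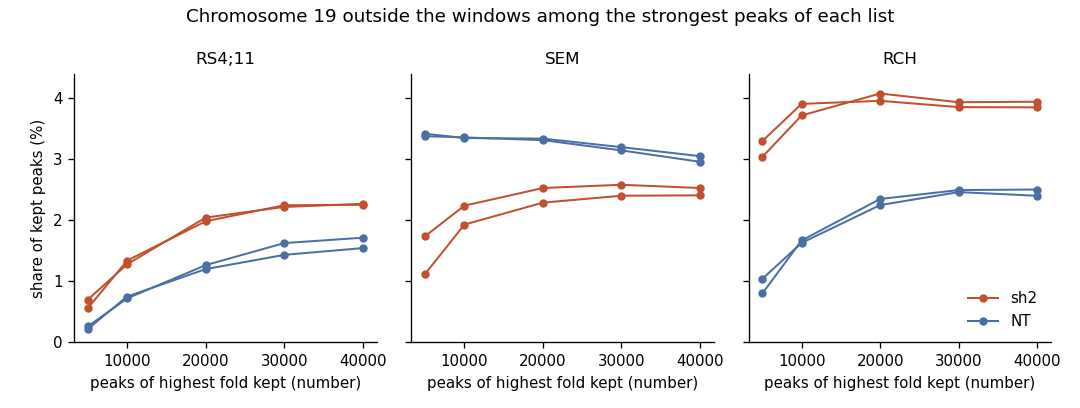
Each line is 1 library and gives the share (vertical axis, percent) that non-cluster peaks of chromosome 19 took among the peaks of highest fold kept from its list (horizontal axis, number of peaks). The sh2 libraries lie above the NT libraries in RS4;11 and RCH and below them in SEM at each of the 5 numbers.

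Regions were then called by presence. A region was sh2-only in a line when both sh2 lists had a peak in it and neither NT list did, and NT-only in the reverse case. Of 1608 non-cluster regions with a peak in RS4;11, 63 (3.92%) were sh2-only, against 0.854% of all regions, and 20 (1.24%) were NT-only, against 9.79%. Of 2048 in RCH, 158 (7.71%) were sh2-only, against 1.9% of all regions, and 34 (1.66%) were NT-only, against 10.6%. Of 2003 in SEM, 37 (1.85%) were sh2-only, against 7.69% of all regions, and 80 (3.99%) were NT-only, against 2.59%. In the deposited lists the balance on non-cluster chromosome 19 was thus the reverse of the genome's in each line. The shares depend on every library, and in SEM the balance depends on 1 of them. Without SEM sh2 library 2, 7.22% of the regions of SEM were sh2-only and 5.94% NT-only, which is the genome's direction. Leaving out any other SEM library gave 3.81 to 4.53% sh2-only and 8.37 to 10.1% NT-only. Leaving out 1 library gave 6.16 to 9.86% sh2-only and 3.42 to 5.53% NT-only in RS4;11, and 12.4 to 19.3% sh2-only and 3.02 to 6.10% NT-only in RCH.

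Among the regions called in either direction, the sh2-only share was 75.9% in RS4;11 (exact 95% Clopper-Pearson interval 65.3 to 84.6%), 31.6% in SEM (23.3 to 40.9%) and 82.3% in RCH (76.1 to 87.4%). The rest of the genome gave 7.47%, 75.4% and 13.8%. Chromosomes 17 and 22 gave 29.6%, 31.4% and 58.1%, and the zinc finger windows 7.69%, 38.5% and 64.7%. The windows held only 13, 13 and 17 called regions in these lines. The intervals cover counting error only. The log2 odds of non-cluster regions against the rest were 5.26 in RS4;11, -2.72 in SEM and 4.84 in RCH, with a mean of 2.46 ± 4.49 (n = 3 lines, exact sign-flip p = 0.5, adjusted 0.667). Leaving out 1 library of the line gave 3.20 to 4.15 in RS4;11, -2.51 to -1.66 in SEM and 3.51 to 4.25 in RCH, with the sign kept each time. Against chromosomes 17 and 22 the log2 odds were 2.87 ± 0.43 (counting SE) in RS4;11, 0.02 ± 0.34 in SEM and 1.73 ± 0.31 in RCH, so in SEM the balance was close to that of these chromosomes. Against the zinc finger windows they were 4.69 ± 1.30, -0.47 ± 0.84 and 1.38 ± 0.76 in the same lines.

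Reducing the lists of a line to equal length changed the counts but not the side on which non-cluster regions fell. In RS4;11, 149 of 1512 regions were then sh2-only (9.85%, against 3.7% of all regions) and 9 NT-only (0.595%, against 6.47%). In SEM, 17 of 1890 were sh2-only (0.899%, against 6.07% of all regions) and 162 NT-only (8.57%, against 4.98%). In RCH, 16.2% of 1885 regions were sh2-only, against 4.9% of all regions, and 13 were NT-only (0.690%, against 6.71%). Among the called regions, sh2-only ones made up 94.3% (RS4;11), 9.50% (SEM) and 95.9% (RCH), against 35.2%, 56.0% and 39.6% in the rest of the genome. Chromosomes 17 and 22 gave 74.8%, 12.2% and 84.9%, and the zinc finger windows 68.8%, 15.8% and 85.7%. The side was thus not particular to non-cluster chromosome 19. Many of these regions had a peak of the other shRNA that fell below the length kept. In the deposited lists, 58.4% of the sh2-only regions of RS4;11, 56.2% of the NT-only regions of SEM and 51.6% of the sh2-only regions of RCH had such a peak. In the rest of the genome these shares were 74.7%, 46.0% and 57.6%.

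Called regions were weaker and narrower than constant ones, as the calling rule itself favours. Widths are those of merged regions, which tend to grow with the number of peaks joined. Weak peaks are also the ones most easily missed by a list, so these values are descriptive only. In the deposited lists, sh2-only non-cluster regions had a median width of 445 bp in RS4;11, 322 bp in SEM and 357 bp in RCH, and a median percentile of fold of 23.6, 22.3 and 34.1. NT-only regions had widths of 348.5, 356 and 431.5 bp and percentiles of 24.1, 21.8 and 28.4. Regions open in all 4 lists had widths of 750, 694.5 and 747 bp and percentiles of 60.1, 61.8 and 64.5. A peak in another line was found for 57 of the 63 sh2-only regions of RS4;11 (90.5%, against 66.5% in the rest of the genome) and for 115 of the 158 of RCH (72.8%, against 74.6%). In SEM it was found for 20 of the 37 sh2-only regions (54.1%, against 65.7%) and for 46 of the 80 NT-only regions (57.5%, against 77.2%). In RS4;11 the sh2-only regions lay a median of 14.9 kb from the nearest region open in all 12 lists, and the NT-only regions 72.4 kb. In SEM these distances were 13.4 and 9.71 kb, and in RCH 15.5 and 21.3 kb. In the rest of the genome they were 21.2 and 93.0 kb in RS4;11, 38.6 and 42.7 kb in SEM and 21.8 and 63.3 kb in RCH. Longer distances for NT-only regions in RS4;11 and RCH were thus not particular to non-cluster chromosome 19.

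The windows divide the rest of chromosome 19 into 7 stretches with regions, numbered from the end of the short arm. Stretch 1 runs from 0 to 9 Mb, stretch 2 from 10 to 11.6 Mb, stretch 3 from 13 to 19.8 Mb and stretch 4 from 24.5 to 36.5 Mb, which takes in the centromere. Stretch 5 runs from 38.5 to 44.3 Mb, stretch 6 from 45 to 52.3 Mb and stretch 7 from 54 to 56.5 Mb. Stretch 4 was the sparse one, with 300 regions at 25 per Mb, against 59.0 to 79.0 per Mb in the others. Densities here and above use full lengths, including sequence such as the centromere where peaks cannot be called, which lowers the value of stretch 4. Of its regions, 75 had a peak in every list, a share of 25%, and the other stretches had 26.3 to 34.4%.

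Stretch 4 also had a balance of counts unlike that of the other stretches in RS4;11 and RCH. It held 0 sh2-only and 9 NT-only regions in RS4;11 and 8 and 9 in RCH, whereas each other stretch had more sh2-only than NT-only regions in both lines. Its NT-only regions were 4.74% of 190 regions with a peak in RS4;11 and 3.86% of 233 in RCH, below the 9.79% and 10.6% of all regions. Its sh2-only regions were 0% of the 190 in RS4;11 and 3.43% of the 233 in RCH, against 0.854% and 1.9% of all regions. In RCH stretch 4 thus differed from all regions in the same directions as the other stretches did. Stretch 1 had 22 sh2-only (5.5%) and 2 NT-only regions (0.5%) in RS4;11, and 51 (9.46%) and 8 (1.48%) in RCH. Stretch 6 had 15 (4.87%) and 3 (0.974%) in RS4;11, and 33 (7.99%) and 5 (1.21%) in RCH. In SEM every stretch had fewer sh2-only than NT-only regions, with 13 (2.33%) and 24 (4.30%) in stretch 1. Stretch 4 of SEM had 4 (2.31%) and 10 (5.78%), against 7.69% and 2.59% of all regions. Peak numbers in stretch 4 gave log2 ratios of -0.16, -0.12 and -0.005 in RS4;11, SEM and RCH, against 0.19, -0.09 and 0.32 in stretch 1. Without stretch 4, RS4;11 had 63 sh2-only (4.44%) and 11 NT-only regions (0.776%), SEM 33 (1.80%) and 70 (3.83%), and RCH 150 (8.26%) and 25 (1.38%). With lists of equal length, stretch 4 had 7 sh2-only and 7 NT-only regions in RS4;11 (4% each, against 3.7% and 6.47% of all regions). For RCH it had 23 (10.95%, against 4.9% of all regions) and 8 (3.81%, against 6.71%). For SEM it had 3 (1.78%, against 6.07%) and 16 (9.47%, against 4.98%). In RCH the counts of stretch 4 then had the same direction as those of the other stretches. The difference between stretches was not tested.

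**Figure D5:**
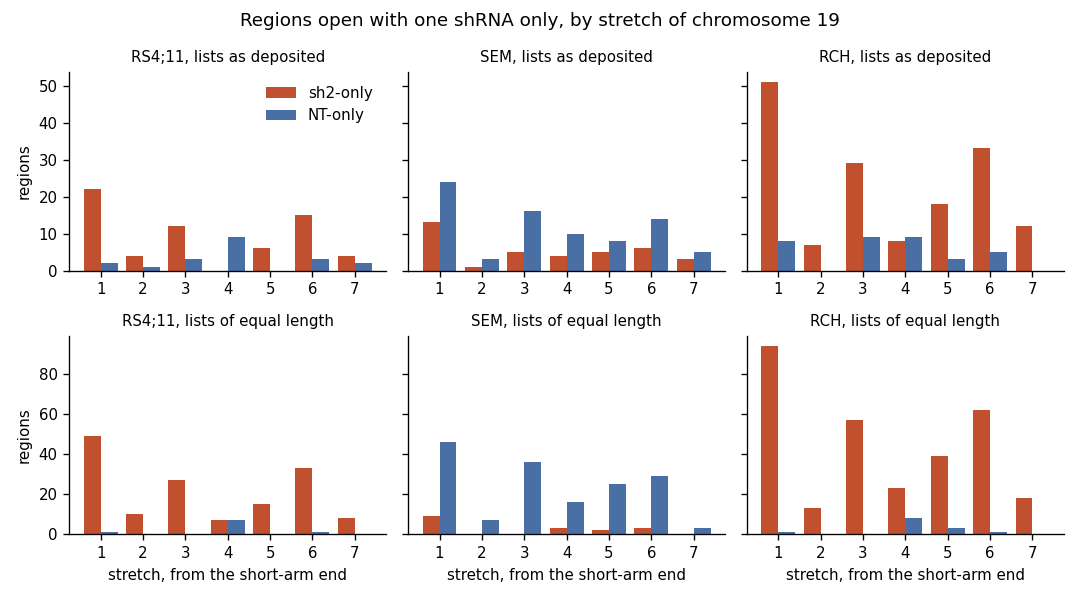
Bars give the number of sh2-only and NT-only non-cluster regions (vertical axis) in each of the 7 stretches (horizontal axis), with lists as deposited above and lists of equal length within a line below. In the deposited lists sh2-only bars are the taller in RS4;11 and RCH outside stretch 4 (51 against 8 in stretch 1 of RCH), and NT-only bars are the taller in all 7 stretches of SEM.

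Single regions show the range of behaviour. Coordinates are hg19 and values are the authors' fold enrichments, given for library 1 and library 2. The strongest constant non-cluster region by mean percentile, chr19:29703511-29704356 (846 bp), had folds of 15.6 and 18.4 in RS4;11 sh2, 20.3 and 18.5 in RS4;11 NT, 14.4 and 16.5 in SEM sh2, 14.8 and 15.1 in SEM NT, 13.9 and 11.9 in RCH sh2 and 15.1 and 15.6 in RCH NT. It was followed by chr19:40476311-40477293 and chr19:33462726-33463294, whose folds ran from 13.2 to 18.8 and from 11.5 to 19.2 over the 12 lists. The widest non-cluster region, chr19:54693095-54695350 (2256 bp), was also open in all 12.

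The highest ranked sh2-only region of RS4;11 was chr19:6551889-6552446 in stretch 1. It had folds of 8.17 and 7.24 with sh2 and no peak with NT. SEM and RCH had a peak there in each of their 8 lists, with folds of 4.43 to 10.4. The next, chr19:13133189-13134213 in stretch 3, had folds of 5.73 and 8.62 with sh2, no peak with NT, and was likewise open in the other lines. The leading NT-only regions of this line both lay in stretch 4. The first, chr19:28511976-28512550, had no peak with sh2 and folds of 7.47 and 8.29 with NT. The second, chr19:32714434-32714893, had no peak with sh2 and folds of 8.79 and 5.64 with NT.

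In RCH the leading sh2-only region, chr19:16358437-16358740, had folds of 7.14 and 7.82 with sh2 and no peak with NT. It was open in all 4 SEM lists and in none of RS4;11. The next, chr19:54672133-54672558, had folds of 7.40 and 7.20 with sh2 and no peak with NT. The leading NT-only regions of RCH were again in stretch 4. The region chr19:28699473-28700227 had no peak with sh2 and folds of 9.59 and 9.53 with NT, and chr19:30941009-30941311 had no peak with sh2 and 9.47 and 7.15 with NT. The first was open in every RS4;11 list, with folds of 10.0 to 16.4, and the second in no other list.

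In SEM the leading sh2-only regions were both in stretch 4. They were chr19:29767996-29768392, with folds of 7.17 and 8.41 with sh2 and no peak with NT, and chr19:30078478-30078791, with 6.14 and 7.36 with sh2 and no peak with NT. The leading NT-only regions were chr19:15740150-15740449, with no peak with sh2 and folds of 8.39 and 6.24 with NT, and chr19:49927128-49927557, with no peak with sh2 and 6.49 and 7.40 with NT. The second of each pair was open in these libraries alone.

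Calls were compared between lines. In the deposited lists 9 of the 2673 non-cluster regions were sh2-only in at least 2 lines and 4 were NT-only in at least 2. Either call in all 3 lines was found for 0. Of all 130887 regions, 118 were sh2-only and 1415 NT-only in at least 2 lines, and 0 and 77 in all 3. Non-cluster regions made up 2.04% of all regions, so few or none are to be found among the 77. RS4;11 and RCH shared 7 sh2-only non-cluster regions, which is 11.1% of the 63 in RS4;11 and 4.43% of the 158 in RCH. Over all regions they shared 27, or 3.29% and 1.92%. These overlaps depend on how often each call was made. In RCH 7.71% of non-cluster regions with a peak were sh2-only, against 1.9% of all regions, and in RS4;11 3.92% against 0.854%. Whether the overlap exceeded what these rates give was not tested. RS4;11 and RCH shared 0 NT-only non-cluster regions, and 1016 over all regions (10.8% and 12.98%). In opposite directions, 4 non-cluster regions were NT-only in RS4;11 and sh2-only in RCH (20% of 20 and 2.53% of 158). Over all regions there were 46 of these (0.489% and 3.27%). The reverse pair of calls held for 0 non-cluster regions, and for 20 over all regions. The leading recurrent sh2-only region, chr19:51182653-51182983, had folds of 5.68 and 5.52 in RS4;11 sh2 and 6.11 and 7.37 in RCH sh2, no peak in either NT sample of these lines, and a peak in 1 SEM sh2 library. The next were chr19:7716951-7717401 and chr19:46210212-46210840, both also open in all 4 SEM lists. The leading recurrent NT-only region, chr19:45738777-45739288, had no peak in SEM sh2 and RCH sh2, while SEM NT had folds of 6.46 and 5.30, and RCH NT 6.49 and 7.49. It was open in all 4 RS4;11 lists. The other named ones were chr19:32714434-32714893, described above, and chr19:28335742-28336244, which was NT-only in SEM and RCH.

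Lists of equal length gave more shared calls. RS4;11 and RCH then had 34 sh2-only non-cluster regions in common, 22.8% of those of RS4;11 and 11.1% of those of RCH. Over all regions they had 237 in common, 8.01% and 8.03%. These overlaps depend on how often each call was made. In RCH 16.2% of non-cluster regions with a peak were sh2-only, against 4.9% of all regions, and in RS4;11 9.85% against 3.7%. Whether the overlap exceeded what these rates give was not tested. In the crossed directions, 21 non-cluster regions were sh2-only in RS4;11 and NT-only in SEM (14.1% and 12.96% of those calls, against 7.88% and 6.39% over all regions). A set of 25 were sh2-only in RCH and NT-only in SEM (8.17% and 15.4%, against 8.27% and 6.70% over all regions). NT-only in RS4;11 with sh2-only in RCH held for 1 non-cluster region (11.1% and 0.327%, against 0.793% and 1.39% over all regions). The combination of sh2-only in RS4;11 and RCH with NT-only in SEM held for 6 non-cluster regions, of 43 among all regions.

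Lastly, regions were sorted by the lines in which all 4 lists had a peak, with no peak in any other list. The 772 non-cluster regions open in every list of all 3 lines set the pattern (28.9%, against 16.5% of all regions). Regions of 1 line were rare: 10 for RS4;11 (0.374%, against 2.03% of all regions), 42 for SEM (1.57%, against 0.957%) and 45 for RCH (1.68%, against 0.889%). Regions of a pair of lines numbered 11 for RS4;11 and SEM (0.412%, against 1.44%), 13 for RS4;11 and RCH (0.486%, against 0.426%) and 21 for SEM and RCH (0.786%, against 0.355%). These counts depend on list length. With all lists at one length there were 4 regions for RS4;11, 15 for SEM, 40 for RCH and 495 open in every list. Counts over all regions are not given for that setting, so a change particular to non-cluster regions cannot be read from it.

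The regions of 1 line with the highest percentiles had clear peaks with both shRNAs. The leading RCH region, chr19:10206688-10207209, had folds of 12.9 and 10.3 with sh2 and 9.66 and 10.8 with NT, and the next, chr19:55677840-55678526, had 11.1 and 8.24 with sh2 and 12.4 and 8.75 with NT. The leading SEM regions were chr19:44242918-44243442, with 7.47 and 7.10 with sh2 and 8.27 and 7.77 with NT, and chr19:8488700-8489184, with 7.17 and 6.80 with sh2 and 8.86 and 7.5 with NT. The leading regions of the remaining line both lay in stretch 4. They were chr19:28376382-28376892, with 8.88 and 8.62 with sh2 and 12.95 and 11.05 with NT, and chr19:28330971-28331732, with 6.67 and 9.54 with sh2 and 10.2 and 8.33 with NT.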

How the data were processed

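ATAC-seq peak lists of 6 samples, 2 lists each, were used. Reads were aligned with Bowtie2 to hg19 and peaks called with MACS2, per the submitters' processing notes. Versions and settings are not given in the sources. Each list was deposited by the authors with 1 value per peak, read from its distribution as a fold enrichment (ratio) over local background. The values are not normalized between lists, and read depth is unknown.

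Peaks on the 22 autosomes and X were kept (140 peaks dropped) and merged at an overlap of 1 bp, with the number of regions checked by bedtools 2.31.1. Calculations used pandas 2.3.3, numpy 2.4.6 and scipy 1.17.1 under Python 3.11.15, and figures matplotlib 3.10.9. The 2 lists of a sample shared 19 to 85 identical intervals, so they were treated as separate libraries, and their mean was 1 value. The sh2 and NT samples were paired by cell line, from the titles. Tests were exact two-sided sign-flip tests over 3 lines or 6 samples, with Benjamini-Hochberg adjustment over 8 tests and a threshold of 0.05. With 3 lines the smallest p is 0.25. Odds used an added 0.5 per count. The calculations were tested on simulated data.

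The named regions are, for each line, the 2 sh2-only, 2 NT-only and 2 line-restricted regions with the highest mean percentile of fold, and the 3 leading regions that recur in at least 2 lines in each direction or are open in all 12 lists. The regions and stretches were chosen with earlier results of these data known. Alternatives were lists of equal length, peaks above the pooled median fold, 50% coverage of a region, no peak of the other shRNA within 1 kb of a called region, other comparison regions, no pairing and leaving out each library or line. Between settings, sh2-only and NT-only counts were compared as shares of the regions with a peak in the line, a choice made after the counts were seen. Leaving out stretch 4 and keeping a fixed number of strongest peaks were chosen after seeing the data. No region was assigned to a gene, and no sequence is shown.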

Additional observations from a re-analysis of the deposited data

Results flagged for a closer look

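For the share of peaks and for the rank of constant regions, every sh2 library of non-cluster chromosome 19 lay on one side of both NT libraries in RS4;11 and RCH and on the other side in SEM. Whether lines differed from each other was not tested. The share of all peaks differed, sh2 minus NT, by 0.606 percentage points in RS4;11 and 1.47 in RCH, and by -0.557 in SEM. The median percentile over regions open in all 12 lists differed by 7.89 points in RS4;11 and 20.2 in RCH, and by -9.13 in SEM. The median percentile of non-cluster peaks within their own list differed by 1.37 points in RCH and by -3.44 in SEM. In RS4;11 it was 48.9 with sh2 and 49.6 with NT, with overlapping libraries, so that line was on the side of SEM here. In each line the shRNA with the shorter lists had the higher share, and with lists of equal length within a line the log2 ratios of the shares were 0.41 in RS4;11, -0.33 in SEM and 0.68 in RCH.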

How the results depend on the processing

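Of 502 values recomputed under alternatives, 402 stayed within the set limits, 93 moved and 7 changed sign. Shares called are in percent of the non-cluster regions with a peak in the line. The matching shares over all regions are not given for these settings, except above for calls with equal length within a line. Whether non-cluster regions moved differently from the genome can therefore not be read from the counts below. With lists of equal length within a line, sh2-only shares were 9.85 in RS4;11, 0.899 in SEM and 16.2 in RCH, NT-only shares 0.595, 8.57 and 0.690, and RCH-only regions numbered 28 and regions of 2 lines 23. With all lists at one length, sh2-only shares were 9.75, 0.892 and 16.2, NT-only shares 0.0956, 7.69 and 0.690, and RS4;11-only regions numbered 4, SEM-only 15, regions of 2 lines 24 and regions in every list 495. Above the pooled median fold of 6.37, NT-only shares were 0.422 in RS4;11 and 5.05 in RCH, and there were 19 sh2-only and 31 NT-only regions in SEM, 49 and 44 in RCH, 19 SEM-only, 6 RCH-only, 19 of 2 lines and 366 in every list. That cutoff is 1 value for lists whose folds are not on a common scale. The NT-only share of RS4;11 was 2.38 when peaks had to cover 50% of a region and 0.776 without the fourth stretch. Several settings enter fewer peaks or regions, and the cause was not tested.

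Leaving out 1 library leaves a single list for its sample, so that more regions qualify: sh2-only shares ran from 6.16 to 9.86 in RS4;11, 3.81 to 7.22 in SEM and 12.4 to 19.3 in RCH, and NT-only shares from 3.42 to 5.53, 5.94 to 10.1 and 3.02 to 6.10. RS4;11-only regions ran from 10 to 16. Each library moved at least 1 of its line's shares by over 1.5 times. Against the zinc finger windows, peak width differed by -67.0 bp and the share open in all 4 lists by -15.4 points. Against chromosomes 17 and 22, the percentile within the list differed by 2.25 points. Leaving out 1 library or line gave -0.33 to 0.24 points for that percentile against the rest of the genome, and -0.62 (without RCH) to 14.1 points (without SEM) for the percentile over regions open in all 12 lists. Without pairing by line, the exact permutation p was 0.5 for peak number. No other paired analysis was possible because the libraries carry no shared replicate numbers in the labels.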
